A study of Mus musculus with 24 samples.

Results

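Mouse macrophages polarized for 18 h by interleukin 4 (IL-4) were compared directly with macrophages polarized for 18 h by bacterial lipopolysaccharide (LPS) together with interferon gamma (IFNg), the states often called M2 and M1. The comparison used the 3 libraries titled M2 and the 3 titled M1 at 18 h, 6 of the 24 in the series, and the 3 unstimulated libraries at 18 h (titled M0) served as the reference for which side had moved. Of 43629 gene identifiers, the 12765 with enough counts were tested, all in 1 fit.

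All 3 groups were bone marrow-derived macrophages (wild-type C57BL/6 mice), differentiated over 7 days in CSF-1 (20 ng/mL), on which the lineage depends, and CSF-1 stayed in the medium afterwards. One group then received 20 ng/mL IL-4, one received LPS and 50 ng/mL IFNg, and one was left unstimulated. LPS was used at 20 or 100 ng/mL, and which of these applied here is not stated. Gene expression was measured by RNA sequencing of polyadenylated RNA, as read counts per gene. Whether the replicates of a group are separate mice or cultures is not stated. The p-values therefore reflect the spread among libraries within groups, possibly a technical one. That spread was estimated over all 24 libraries of the series, not from the compared groups alone.

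The 6 compared libraries held 5830110 to 8122945 counts, and the unstimulated ones reached down to 5032096. A gene with 0 counts over a group could lie at up to 0.132 CPM in IL-4, 0.176 CPM in LPS with IFNg and 0.158 CPM in unstimulated cells (3 counts over the group, counting error only; CPM is the count relative to the library's total, with TMM scaling). Replicates were not copies of each other, and IL-4 replicate 2 stood furthest apart. The chi-square statistic per gene was 7.25 between IL-4 replicates 1 and 2 and 4.47 between replicates 2 and 3, against 1.60 to 3.18 for the other pairs of a group. Macrophage markers were abundant in every group (8 of 8 detected), with a summed level of 10165 to 10596 CPM in IL-4, 12148 to 12480 in LPS with IFNg and 14393 to 16159 in unstimulated cells. Of the markers of other blood cells, 10 of 10 neutrophil genes were detected in IL-4 and unstimulated cells (155 to 202 and 139 to 205 CPM summed) and 8 of 10 in LPS with IFNg (35.7 to 60.1 CPM), where Elane and Mpo were at 0. The sum over 6 B cell genes was 15.4 to 17.8 CPM in IL-4, 3.6 to 3.78 in LPS with IFNg and 28.9 to 35.8 in unstimulated cells, most of it Ighm. The T cell genes Cd3e, Cd3d, Cd3g and Trac were at 0 in all 9 libraries. The part of other cells in the results was not tested, and in bulk RNA fewer cells of a type and less RNA per cell cannot be told apart.

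As background, IL-4 signals through its receptor and JAK kinases to STAT6, which binds palindromic sites in genes such as Arg1 and Retnla and drives the programme of alternative activation linked to helminth infection and tissue repair. IFNg acts on genes with gamma-activated sites and induces IRF1. LPS signals through TLR4 to NF-kappaB and, through type I interferon, to interferon-stimulated response elements. The combination gives the classically activated, microbicidal macrophage that makes nitric oxide and itaconate.

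The promoters of 5 genes that the results turn on are shown, since they hold the letters those factors are known to prefer. Each is the stretch of 250 bases before the start site in RefSeq (GRCm38.p6), 5′ to 3′ on the gene's strand, with motif matches in capitals. RefSeq starts can differ from those of the annotation used for the counts. The motifs searched, on both strands, were TTC and GAA with 4 bases of any kind between them (the spacing STAT6 favours), the same with 3 bases between them (gamma-activated site), GAAA repeated after 2 bases of any kind (interferon-stimulated response element) and the kappaB consensus, and matches of different motifs may overlap. Retnla, at chr16:48842359-48842608 (forward strand), has TTCACAAGAA beginning 145 bases before the start. Pdcd1lg2, at chr19:29410669-29410918 (forward strand), has a kappaB match 244 bases before the start and TTCCTCAGAA 82 bases before it. Chil3, at chr3:106167565-106167814 (reverse strand), has TTCTTAGAA 172 bases before the start. Irf1, at chr11:53769764-53770013 (forward strand), the more upstream of its starts in the table, has TTCCCCGAA 90 bases and a kappaB match 13 bases before the start. Gbp2, at chr3:142620413-142620662 (forward strand), has GAAAGTGAAA, read on the other strand, 59 bases before the start.
Retnla: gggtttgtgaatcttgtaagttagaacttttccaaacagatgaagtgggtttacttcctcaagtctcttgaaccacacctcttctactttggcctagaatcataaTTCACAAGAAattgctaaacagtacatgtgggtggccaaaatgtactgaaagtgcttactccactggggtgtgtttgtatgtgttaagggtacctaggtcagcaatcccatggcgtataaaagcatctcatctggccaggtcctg
Pdcd1lg2: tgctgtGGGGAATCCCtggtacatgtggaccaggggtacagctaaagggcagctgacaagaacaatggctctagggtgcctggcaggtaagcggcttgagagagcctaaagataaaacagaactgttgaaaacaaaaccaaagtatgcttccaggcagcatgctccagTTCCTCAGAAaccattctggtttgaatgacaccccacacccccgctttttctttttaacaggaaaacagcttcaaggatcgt
Chil3: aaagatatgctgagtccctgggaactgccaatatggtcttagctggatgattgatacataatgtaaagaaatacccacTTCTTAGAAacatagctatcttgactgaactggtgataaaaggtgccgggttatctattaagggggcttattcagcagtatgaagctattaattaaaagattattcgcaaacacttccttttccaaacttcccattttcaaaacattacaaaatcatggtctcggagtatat
Irf1: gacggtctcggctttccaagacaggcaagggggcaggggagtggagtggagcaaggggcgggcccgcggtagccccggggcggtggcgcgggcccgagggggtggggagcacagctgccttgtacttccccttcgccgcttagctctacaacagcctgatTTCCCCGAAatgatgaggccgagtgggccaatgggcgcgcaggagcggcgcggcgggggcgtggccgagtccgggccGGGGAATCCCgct
Gbp2: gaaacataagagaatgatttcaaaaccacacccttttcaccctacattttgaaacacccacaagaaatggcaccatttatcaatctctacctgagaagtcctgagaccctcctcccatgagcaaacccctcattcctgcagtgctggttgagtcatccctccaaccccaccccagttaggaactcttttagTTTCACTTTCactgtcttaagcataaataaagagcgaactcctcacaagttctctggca

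Over the whole table of 32851 promoters in RefSeq, the STAT6-type spacing was present in 5.85%, the gamma-activated site in 7.02%, the response element in 2.98% and the kappaB consensus in 3.9% of the same windows. The shares that follow count promoters, and a gene with several starts can give several, whose windows can overlap and hold the same match. The 32, 29, 105, 10 and 19 promoters named below, in this order, came from 23, 25, 79, 9 and 17 genes. Among promoters of the list of IL-4 effector and marker genes, 7 of 32 (21.9%) held the STAT6-type spacing. It was also present in 5 of 29 promoters (17.2%) of type I interferon response genes, and in 7 of 105 promoters (6.67%) of genes at least 2-fold higher in IL-4 and called against unstimulated cells in IL-4 but not in LPS with IFNg. Of the list of guanylate-binding proteins and immunity-related GTPases, 9 of 10 promoters (90%) held the response element and 5 of 10 the gamma-activated site. The response element was present in 11 of 29 promoters (37.9%) of type I interferon response genes, and the kappaB consensus in 9 of 19 (47.4%) of MHC class I and immunoproteasome genes. Of the 12 genes set aside for a look at promoters 9 were in the table, and the windows of Cxcl9, Acod1, Cd274 and Egr2 held none of these letters. Within 100 bases of the start the IL-4 list had 1 match of the STAT6-type spacing (3.12%, against 2.03% of all promoters). The MHC class I list had 0 kappaB matches there, against 1.5% of all promoters.

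The polarized states differed in most of the genes tested. Between IL-4 and LPS with IFNg, 9436 of 12765 genes (73.9%) were called by edgeR's quasi-likelihood test at a Benjamini-Hochberg adjusted p below 0.05, 4754 higher in IL-4 (37.2%) and 4682 higher in LPS with IFNg (36.7%). At least 2-fold differences numbered 2477 (19.4%) and 2239 (17.5%), and the 3 libraries of each group did not overlap for 9725 genes (76.2%). These directions are relative to TMM scaling, which put the median difference of all genes at 0.02 on the log2 scale. With scaling by library size alone the median was 0.49 and the split was 7253 higher in IL-4 and 2776 higher in LPS with IFNg, so that the direction of differences of about that size or less depends on the scaling. On the first principal component of the 9 libraries at 18 h, which held 85.3% of the variance, LPS with IFNg stood apart, and the second, with 9.35%, separated IL-4 from unstimulated cells.

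Log2 differences below are IL-4 minus LPS with IFNg ± SE unless another contrast is named, with 3 libraries in each group. The SE is the size of the log2 difference over the square root of the F statistic of the quasi-likelihood test. Where 1 group lies near 0 counts it can understate the counting error. For Il1rl1 this SE was 0.28, while the counting interval ran from 167-fold to 4983-fold. A positive value is higher in IL-4. Where a group had 0 counts the fold is computed against 3 counts and is a lower bound, and where it had 1 to 3 counts the ratio of depth-scaled counts is given. Every gene said to be higher or lower was called, and the largest adjusted p among the named and called genes was 0.0484 in this contrast, for Dmpk.

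The genes that were highest in IL-4 included Retnla, which encodes the secreted effector RELM alpha (gene ENSMUSG00000061100, chromosome 16, 48842551 to 48844461, forward strand, GRCm38). Its level was 265, 202 and 144 CPM in the 3 IL-4 libraries, 0, 0.189 and 0 CPM in the LPS with IFNg libraries and 0 in the unstimulated ones. That was 3499-fold in counts (95% counting interval 628 to 138239) above LPS with IFNg. Rnase2a, a ribonuclease of the eosinophil-associated family, was at 52.2, 50.5 and 35.2 CPM in IL-4 and at 0 in the other 6 libraries, at least 265-fold higher. It belongs to a family of near-identical copies, so its reads are uncertain between members. Eosinophil markers (5 genes) were also higher in sum in IL-4, at 43.6 to 54.8 CPM, with 29.0 to 36.6 CPM in unstimulated cells and 3.57 to 3.98 CPM in LPS with IFNg, where Prg3 was at 0. Most of the IL-4 sum was Ccr3 (36.3 CPM). Epx was near the detection limit, at 0.037 CPM in IL-4, 0.063 in LPS with IFNg and 0.165 in unstimulated cells. The part of eosinophils in the Rnase2a difference was not tested. Mgl2, a galactose-binding lectin used as a mark of IL-4 macrophages, measured 255, 255 and 209 CPM in IL-4 against 0.465, 0.379 and 0.567 in LPS with IFNg and 0, 0.447 and 1.25 in unstimulated cells (8.93 ± 0.22). In these genes the IL-4 libraries stood apart and the other groups were near the detection limit.

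Il1rl1, encoding the IL-33 receptor ST2, was 603-fold in counts (95% counting interval 167 to 4983) higher in IL-4, at 79.5, 65.7 and 68.3 CPM. Unlike Retnla it was also present in unstimulated cells, at 5.75, 4.77 and 6.26 CPM, and the LPS with IFNg libraries had 0.155, 0.189 and 0. Il31ra, a receptor chain for IL-31, was at least 74.1-fold higher, the homeobox gene Msx3 at least 72.1-fold higher and the sodium channel gene Scn3a at least 82.3-fold higher. Other genes at the top had fallen with LPS and IFNg and had not risen with IL-4. Slco2b1, an organic anion transporter, averaged 28.8, 0 and 49.6 CPM in IL-4, LPS with IFNg and unstimulated cells and was at least 161-fold higher in IL-4. The kinetochore gene Spc24 (at least 82.8-fold higher), the replication gene Ticrr (at least 57.1-fold higher) and the replication checkpoint gene Clspn (513-fold in counts, 95% counting interval 91.8 to 20297) were of this kind, at or below their unstimulated level in IL-4. Myh15, a myosin heavy chain gene, was at least 67.6-fold higher in IL-4 and had risen there from unstimulated cells (0.97 ± 0.24). Slco2b1 and Ticrr overlap genes on the opposite strand, whose reads cannot be told apart if strand was ignored in counting.

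The genes that were highest in LPS with IFNg began with Nos2, the inducible nitric oxide synthase (gene ENSMUSG00000020826, chromosome 11, 78920787 to 78960254, forward strand). Its 3 LPS with IFNg libraries held 6157, 5867 and 5628 CPM, the IL-4 libraries 0.278, 0.334 and 0 and the unstimulated ones 0, 0.149 and 0.626 (-14.58 ± 0.20). Acod1, which makes itaconate, was at 5574, 5506 and 5306 CPM against 0.972, 0.334 and 0.305 in IL-4 and 0.507, 0.596 and 2.03 in unstimulated cells (-13.28 ± 0.23). For both genes IL-4 and unstimulated libraries overlapped, and the LPS with IFNg libraries lay far above them. Cxcl9, a chemokine that attracts T cells and a classical IFNg target, was at 3891, 3819 and 3968 CPM with LPS and IFNg and 0.833, 0.111 and 0.305 with IL-4 (-13.19 ± 0.24). Cxcl10, a related chemokine that overlaps Art3 on the other strand, was at 2368, 2447 and 2419 CPM with LPS and IFNg and 0.416, 0.334 and 0.305 with IL-4 (-12.66 ± 0.29). The remaining names were the guanylate-binding protein genes Gbp4 (-13.82 ± 0.19) and Gbp2b (-12.19 ± 0.21), the immunity-related GTPase genes Iigp1 (-13.36 ± 0.20) and Tgtp1 (-11.77 ± 0.17), the chemokine gene Ccl5 (-11.65 ± 0.19), the chloride channel gene Clic5 (-11.86 ± 0.23), the serpin gene Serpina3f (7348-fold in counts, 95% counting interval 1318 to 290265) and the lymphocyte activation marker Cd69 (4896-fold in counts, 95% counting interval 878 to 193422). Gbp, Tgtp and Serpina3 genes have near-identical copies, between which reads are uncertain.

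**Figure D1:**
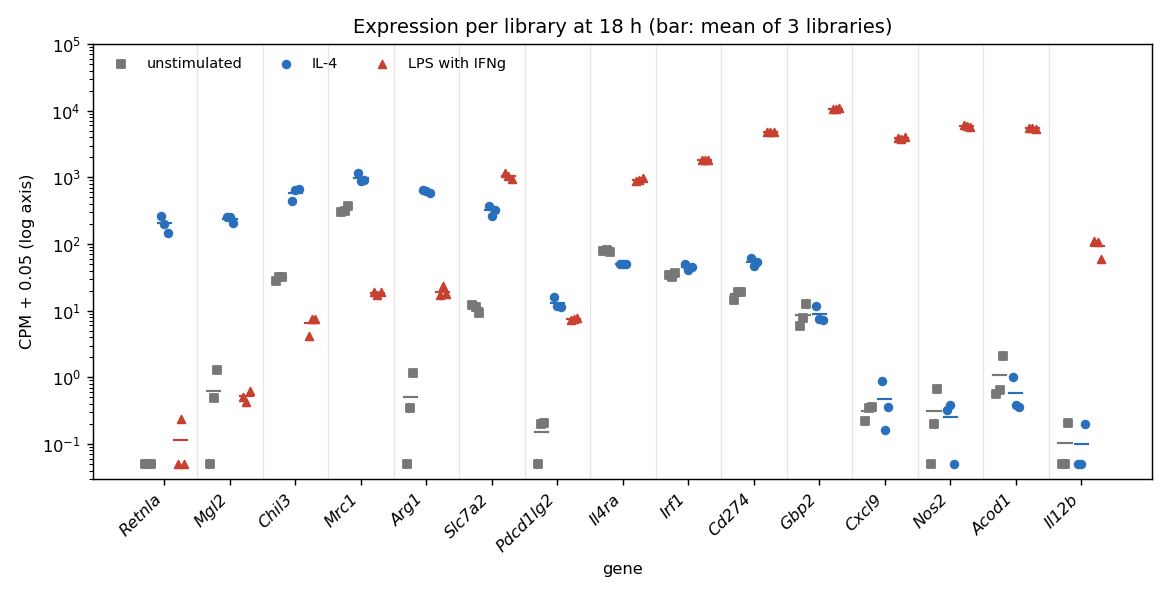
Expression of 15 genes in each of the 9 libraries at 18 h, as CPM plus 0.05 on a log axis, with 1 mark per library and a bar at the mean of 3. Retnla and Mgl2 are high with IL-4 alone, Arg1, Slc7a2 and Pdcd1lg2 lie above unstimulated cells in both polarized groups, and Nos2, Acod1 and Cxcl9 are high with LPS and IFNg alone.

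The contrasts of each polarized group with unstimulated cells asked which side had moved. They share the 3 unstimulated libraries, so their classes are described here without a test over genes. Against unstimulated cells, 4999 genes (39.2%) were called in IL-4, 2431 higher (19%) and 2568 lower (20.1%), and 9215 (72.2%) in LPS with IFNg, 4602 higher (36.1%) and 4613 lower (36.1%). In IL-4 429 genes rose (3.36%) and 556 fell (4.36%) at least 2-fold, against 2106 (16.5%) and 2438 (19.1%) in LPS with IFNg. Of the 9436 genes that separated the polarized states, 4713 (49.9%) had moved on the LPS with IFNg side alone and 806 (8.54%) on the IL-4 side alone. Another 1715 (18.2%) had moved in opposite directions, 1581 (16.8%) in the same direction by different amounts, and 621 (6.58%) on neither side past the threshold. Without IL-4 replicate 2 the classes held 5284, 621, 1311, 1348 and 518 genes. Among the genes at least 2-fold apart, 2267 (48.1%) had moved on the LPS with IFNg side alone, 185 (3.92%) on the IL-4 side alone and 1351 (28.6%) in opposite directions.

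**Figure D2:**
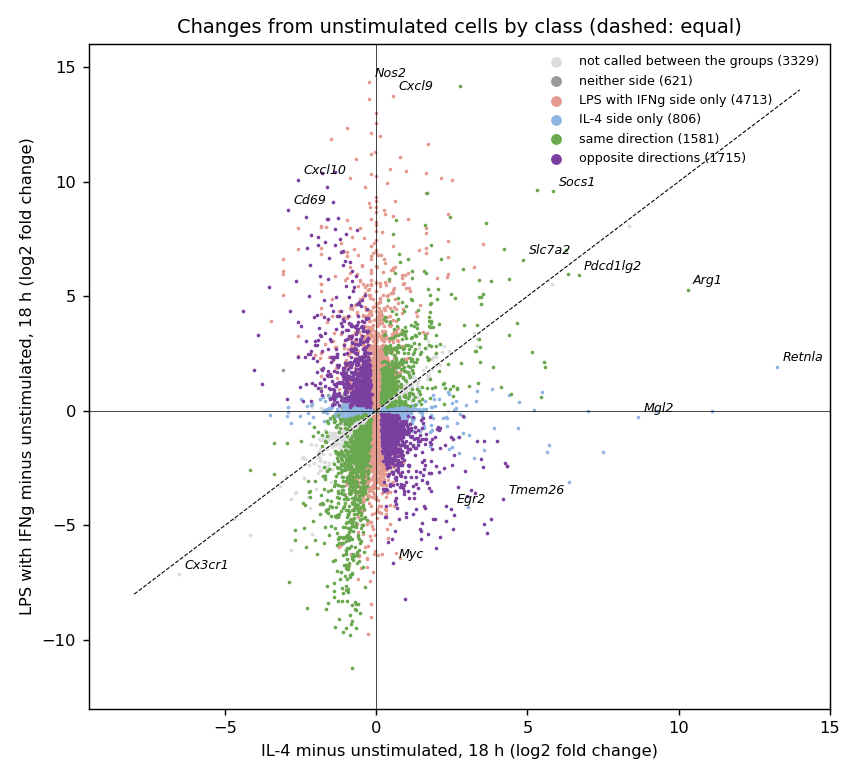
Each point is a gene, with its log2 fold change from unstimulated cells in IL-4 on the x axis and in LPS with IFNg on the y axis, coloured by class (numbers of genes in brackets). Both axes share the 3 unstimulated libraries. The spread is wider along the LPS with IFNg axis, and Arg1, Slc7a2, Socs1 and Pdcd1lg2 lie in the upper right, where both polarized groups rose.

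Among the genes that moved in opposite directions, 924 were raised by IL-4 and lowered by LPS with IFNg. Tmem26, a membrane protein gene, was at 16.1, 15 and 15.7 CPM in unstimulated cells, 318, 259 and 274 in IL-4 and 0.465, 1.33 and 1.51 in LPS with IFNg, so that the 3 groups lay in 3 separate ranges (8.04 ± 0.20). Egr2, a transcription factor downstream of STAT6, rose with IL-4 (2.47 ± 0.11) and fell with LPS and IFNg (-4.28 ± 0.20), from 34.2, 40.8 and 49 CPM in unstimulated cells. It reached 246, 218 and 225 CPM in IL-4 and dropped to 2.33, 2.84 and 1.13 CPM in LPS with IFNg, with no overlap. The lectin gene Clec10a (6.02 ± 0.27), the prostaglandin synthase gene Ptgs1 (6.74 ± 0.26), the microtubule gene Map2 (6.86 ± 0.24), the tropomyosin gene Tpm2 (5.57 ± 0.38) and Hr, encoding a nuclear receptor corepressor (70.6-fold in counts, 95% counting interval 23.9 to 344), followed the same pattern. Il1rl1, described above, also belonged here.

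In the other orientation 791 genes were raised by LPS with IFNg and lowered by IL-4. Ifit3, an interferon-induced antiviral gene, fell from 15.2, 17.1 and 18.6 CPM in unstimulated cells to 3.75, 2.11 and 2.29 in IL-4 and rose to 916, 888 and 818 with LPS and IFNg (-8.34 ± 0.24). Its neighbour Ifit3b (-8.93 ± 0.26) is a close copy, and reads may be split between them. Nfkbiz, a nuclear regulator of NF-kappaB target genes, averaged 1.16, 34.4 and 6.77 CPM in IL-4, LPS with IFNg and unstimulated cells (-4.94 ± 0.20). The membrane protein gene Ms4a6b (-7.20 ± 0.17), the adhesion gene Nectin4 (-4.69 ± 0.15) and the inflammasome sensor gene Naip1 (85.6-fold in counts, 95% counting interval 28.8 to 419) were also of this kind. Cxcl10 and Cd69 completed the 8 genes of this orientation taken by size. The fall of Cd69 from unstimulated cells in IL-4 was near the threshold (edgeR adjusted p = 0.0483) and rested on few counts.

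Of the 1581 genes that moved in the same direction, 627 rose in both groups. Arg1, the arginase used as a mark of IL-4 macrophages (gene ENSMUSG00000019987, chromosome 10, 24915221 to 24927484, reverse strand), was among them. It measured 0, 0.298 and 1.1 CPM in unstimulated cells, 16.9, 23.3 and 17.8 with LPS and IFNg and 639.6, 629.6 and 585 with IL-4, and the groups did not overlap. The difference between the polarized states was 5.01 ± 0.13, the increase over unstimulated cells 10.29 ± 0.21 in IL-4 and 5.28 ± 0.33 in LPS with IFNg. With LPS alone at 18 h the level was 147, 178 and 194 CPM, above that in LPS with IFNg (LPS with IFNg minus LPS -3.17 ± 0.13). Whether these groups received the same LPS dose is not stated. Pdcd1lg2, encoding the checkpoint ligand PD-L2, was at 0, 0.149 and 0.157 CPM in unstimulated cells, 7.29, 7.58 and 7.75 CPM in LPS with IFNg and 16.2, 11.7 and 11.1 CPM in IL-4. Its mean levels in the polarized groups lay within 2-fold of each other (0.79 ± 0.18), while both were far above the unstimulated one.

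Slc7a2, the cationic amino acid transporter that feeds arginine to both arginase and nitric oxide synthase, was higher in LPS with IFNg at 1151, 1047 and 953 CPM than in IL-4 at 367, 263 and 324, with 12.2, 11.5 and 9.24 in unstimulated cells (-1.73 ± 0.12). Socs1, a feedback inhibitor of JAK signalling, averaged 40.4, 542 and 0.684 CPM in IL-4, LPS with IFNg and unstimulated cells (-3.74 ± 0.10). The receptor gene Tarm1 (-4.32 ± 0.13) and the carbonic anhydrase gene Car2 (-1.33 ± 0.19) also rose on both sides and further with LPS and IFNg.

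A further 954 genes fell in both groups. The kinase gene Dmpk fell from 45.1 to 4.3 CPM in IL-4 and 6.73 in LPS with IFNg, and was lower in IL-4 than in LPS with IFNg (-0.63 ± 0.29). That last call was lost on leaving out any 1 of 5 of the 6 compared libraries (edgeR adjusted p up to 0.122). Of the other genes of this kind, the pentraxin gene Nptx1 (6.31 ± 0.44), the membrane protein gene Tmem176b (1.31 ± 0.27), the sphingosine phosphate receptor gene S1pr1 (1.61 ± 0.17), Pcp4l1 (3.64 ± 0.21) and the complement receptor gene C5ar1 (1.05 ± 0.10) fell further with LPS and IFNg. Some genes left the unstimulated level without separating the polarized states. Cx3cr1, the fractalkine receptor, averaged 118 CPM in unstimulated cells and 1.27 and 0.815 CPM in IL-4 and LPS with IFNg (0.62 ± 0.70, adjusted p = 0.43, not called in edgeR). Mmp13, a collagenase, measured 35.6, 154 and 143 CPM in the same order (0.11 ± 0.08, edgeR adjusted p = 0.21), and Lyz2, lysozyme, 9690.5, 5032 and 5238 CPM (-0.06 ± 0.08, edgeR adjusted p = 0.51). Cx3cr1, Mmp13 and Lyz2 were picked from the lists after their values were seen.

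Lists of genes by function were then read against the share of all genes called, 37.2% higher in IL-4 and 36.7% higher in LPS with IFNg. They were chosen with earlier results of these data known, and no set test was run. Of the 31 tested genes of the list of IL-4 effectors and markers, 24 were higher in IL-4 and 7 in LPS with IFNg, with a median of 4.65 (3.90 with genes at 0 set to their bound). Higher in IL-4 were the mannose receptor gene Mrc1, at 1177, 868 and 918 against 19.2, 17.4 and 19.1 CPM (5.73 ± 0.21), and the chitinase-like gene Chil3, at 438, 654 and 675 against 4.19, 7.39 and 7.56 CPM (6.55 ± 0.16). Both were present in unstimulated cells, Mrc1 at 333 and Chil3 at 30.7 CPM, and fell with LPS and IFNg. The transcription factor gene Irf4 (6.75 ± 0.26), the matrix gene Fn1 (6.73 ± 0.27), the VEGF receptor gene Flt1 (5.18 ± 0.16), the integrin gene Itgax (3.10 ± 0.10) and the cadherin gene Cdh1 (175-fold in counts, 95% counting interval 48.3 to 1453) were higher in IL-4 too. Chil3 has a close copy, Chil4, which was at 0 in the 6 libraries of the other groups.

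The 7 members of that list called higher in LPS with IFNg were Il1rn, Il4ra, Tgm2, Slc7a2, Ccl22, Klf4 and, with a call that depended on the setting, Ccl24. Il4ra, the receptor chain that binds IL-4, was at 881, 919.7 and 979 CPM in LPS with IFNg, 50.2, 50.0 and 50.3 in IL-4 and 77.6, 81 and 74.7 in unstimulated cells, so that the IL-4 group was the lowest of the 3 (-4.21 ± 0.11). Tgm2, the transglutaminase proposed as a mark of IL-4 macrophages, averaged 274, 4589 and 256 CPM in IL-4, LPS with IFNg and unstimulated cells (-4.07 ± 0.10), and its level in IL-4 was not called different from unstimulated cells (0.10 ± 0.09, edgeR adjusted p = 0.44). Il1rn, the antagonist of interleukin 1 (-5.37 ± 0.12), the chemokine gene Ccl22 (-1.20 ± 0.13) and the transcription factor gene Klf4 (-1.01 ± 0.08) rose above unstimulated cells on both sides and were higher with LPS and IFNg. Ccl24 lay at 1.58 CPM in IL-4 and 2.68 in LPS with IFNg and at 0 in unstimulated cells (-0.76 ± 0.34), a call that was lost without any 1 of 5 of the 6 libraries (edgeR adjusted p up to 0.132). It was also lost with DESeq2 (adjusted p = 0.169) and, in edgeR, without a filter on low counts (adjusted p = 0.127) and with library-size scaling (adjusted p = 0.431). Cish, an inhibitor of STAT signalling, was 27.1, 20.8 and 0.316 CPM in the 3 groups, near equal in the polarized ones (0.39 ± 0.15), and its difference was not called without IL-4 replicate 1 or without replicate 1 or 3 of LPS with IFNg (edgeR adjusted p up to 0.119).

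All 34 tested type I interferon response genes were higher in LPS with IFNg (median -5.32), and so were all 14 guanylate-binding protein and immunity-related GTPase genes (median -8.38). Rsad2, encoding the antiviral enzyme viperin, was at 5383, 5421 and 4980.4 CPM in LPS with IFNg and 10.1, 4.34 and 5.03 in IL-4, with 13.4, 15.3 and 17.2 in unstimulated cells (-9.68 ± 0.23). Gbp2, whose promoter is printed above, was at 10461, 10517 and 10813 CPM in LPS with IFNg, 11.8, 7.34 and 7.32 in IL-4 and 5.75, 7.6 and 12.7 in unstimulated cells (-10.24 ± 0.18), with the latter pair overlapping. Against unstimulated cells 28 of the 34 type I interferon response genes fell in IL-4 and 0 rose (median -0.95), while 34 rose in LPS with IFNg. The transducer gene Stat2 averaged 44, 982 and 66.7 CPM in IL-4, LPS with IFNg and unstimulated cells (-4.48 ± 0.11), and the interferon regulatory factor gene Irf7 (-8.20 ± 0.22) was higher with LPS and IFNg as well. Irf1 was at 1838, 1818 and 1833 CPM in LPS with IFNg and 50.4, 40.3 and 45.9 in IL-4 (-5.33 ± 0.08), and Irf8 was higher in LPS with IFNg (-3.16 ± 0.08). Stat6, which carries the IL-4 signal, was at 224 CPM in IL-4 and 375 in LPS with IFNg (-0.74 ± 0.07). Of the signalling lists, 5 of 6 STAT genes, 6 of 8 interferon regulatory factors and 10 of 11 receptors and JAKs of IL-4 and interferons were higher with LPS and IFNg, with 1 of each list higher in IL-4 (Stat5a, Irf4 and the interferon gamma receptor gene Ifngr1). The call of Stat5a (0.26 ± 0.10) was lost without IL-4 replicate 1 (edgeR adjusted p = 0.203) or without replicate 2 or 3 of LPS with IFNg. Of the SOCS and CISH list 4 of 8 were higher on each side, led by Socs2 in IL-4 (4.65 ± 0.25) and Socs3 in LPS with IFNg (-8.49 ± 0.21).

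Antigen presentation genes were higher in LPS with IFNg, and most class II genes had also risen in IL-4. All 20 MHC class I and immunoproteasome genes were higher in LPS with IFNg (median -3.34), including B2m, the light chain of class I (-2.52 ± 0.08), the peptide transporter gene Tap1 (-4.73 ± 0.08) and H2-K1 (-2.90 ± 0.10). In IL-4 their median change from unstimulated cells was 0.10. Of the MHC class II list 10 of 11 were higher in LPS with IFNg (median -1.72), yet 9 of the 11 rose over unstimulated cells in IL-4 and 11 in LPS with IFNg. Ciita, the master regulator of class II, was at 4.06, 5.96 and 5.95 CPM in unstimulated cells, 36.2, 26.3 and 27 in IL-4 and 184, 189.6 and 183 in LPS with IFNg (-2.64 ± 0.11). H2-Ab1, a class II beta chain, stepped up in the same order, at 83.7, 293 and 1254 CPM (-2.10 ± 0.11). The class II processing gene Ifi30 was near equal in the polarized groups (-0.01 ± 0.09, edgeR adjusted p = 0.92). Of 16 costimulatory and checkpoint ligands 12 were higher in LPS with IFNg, among them Cd86 (-7.90 ± 0.19), Cd40 (-6.09 ± 0.14) and Cd274, encoding PD-L1, at 4707, 4760.4 and 4839 against 61.6, 46.1 and 53.5 CPM (-6.48 ± 0.13). Cd276 (2.58 ± 0.12), Vsir (1.63 ± 0.07), Sirpa (0.76 ± 0.06) and Pdcd1lg2 were the 4 that were higher in IL-4. Dendritic cell markers, which class II genes can accompany, summed to 3.23 to 4.03 CPM in IL-4, 13.6 to 18.4 in LPS with IFNg and 2.97 to 3.72 in unstimulated cells (6 of 6 detected in each). Most of the LPS with IFNg sum was Xcr1 (8.33 CPM) and Clec9a (4.83 CPM), and Dpp4 was at 1.53 against 0.365 in IL-4. The other members did not follow, with Zbtb46 at 1.31 against 1.37 in IL-4, Flt3 at 0.241 against 0.592 and Siglech at 0.115 against 0.773. The part of dendritic cells in the result was not tested.

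Cytokines, CXC chemokines and pathogen sensors were mostly higher in LPS with IFNg, with a minority of growth factor and chemokine genes on the IL-4 side. CC chemokines were divided between the sides. Of 34 tested cytokine genes 24 were higher in LPS with IFNg and 7 in IL-4 (median -2.53). Il12b, the p40 subunit that drives type 1 T cell responses, was at 112, 107 and 60.5 CPM in LPS with IFNg and had 1 count in IL-4, a ratio of 2143-fold in counts (95% counting interval 384 to 84698). Tnf was at 269, 234 and 241 against 9.16, 9.68 and 12 CPM (-4.60 ± 0.13). Il6 was 183-fold in counts (95% counting interval 62.2 to 892) higher in LPS with IFNg, and Il1b (-9.68 ± 0.39) and Il27 (-5.87 ± 0.23) were higher in LPS with IFNg too. The 7 higher in IL-4 were the platelet-derived growth factor genes Pdgfa (4.52 ± 0.15) and Pdgfb, the insulin-like growth factor gene Igf1 (3.31 ± 0.07), the EGF receptor ligand gene Hbegf (3.09 ± 0.16), Tgfb1, Tnfsf12 and Tnfsf13. Igf1 stood at 955, 884 and 949.8 CPM in IL-4, 637, 626 and 615 in unstimulated cells and 94.6, 88.1 and 97.8 in LPS with IFNg.

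Of 10 tested CXC chemokine genes 6 were higher in LPS with IFNg and 2, Pf4 (1.69 ± 0.12) and Cxcl14 (2.66 ± 0.28), in IL-4. Of 11 CC chemokine genes 6 were higher in LPS with IFNg and 5 in IL-4 (5 and 5 with library-size scaling). Ccl9 (1.67 ± 0.09), Ccl3 (1.45 ± 0.11) and Ccl6 (1.41 ± 0.10) led on the IL-4 side, and Ccl7 differed little (0.26 ± 0.11) although both polarized groups stood above unstimulated cells (148, 124 and 13.9 CPM in IL-4, LPS with IFNg and unstimulated cells). Its call was lost without IL-4 replicate 2 (0.11, edgeR adjusted p = 0.387) or without replicate 1 or 2 of LPS with IFNg (edgeR adjusted p = 0.1 and 0.175). Of 16 Toll-like receptor genes and co-receptors 14 were higher in LPS with IFNg. Among them Cd14, a co-receptor of LPS, was lower in IL-4 than in unstimulated cells, at 36.9, 35 and 33.1 against 266, 250.4 and 303 CPM, with 393, 396 and 384 in LPS with IFNg (-3.48 ± 0.11). Tlr4 itself was -0.06 ± 0.13 (edgeR adjusted p = 0.69, not called). Of 15 inflammasome genes 13 were higher in LPS with IFNg, with Casp1 at -2.64 ± 0.09 and Nlrp3 at -2.39 ± 0.09, and the adaptor gene Pycard was higher in IL-4 (1.62 ± 0.09).

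Of 18 C-type lectin genes 8 were higher in IL-4 and 10 in LPS with IFNg. The beta-glucan receptor gene Clec7a was at 392, 452 and 455 CPM in IL-4 and 112, 126 and 95.5 in LPS with IFNg (1.96 ± 0.10), while Clec4e, encoding the mycobacterial glycolipid receptor Mincle, was at 1.8, 1.56 and 1.22 CPM in IL-4 and 338, 353 and 327 in LPS with IFNg (-7.77 ± 0.13). Of 21 scavenger and efferocytosis receptor genes 12 were higher in IL-4, with Cd36, which takes up oxidized lipids and fatty acids (2.36 ± 0.07), and the integrin gene Itgb3 (4.88 ± 0.14), and 6 in LPS with IFNg, with Marco (-8.85 ± 0.28) and Mertk (-4.13 ± 0.12). Cd163 had 0 counts in LPS with IFNg and was at least 27.4-fold higher in IL-4, where it lay below unstimulated cells (-0.59 ± 0.22). Osteoclast markers, a related lineage that uses Itgb3, summed to 311 to 329 CPM in IL-4, 78.5 to 97.5 in LPS with IFNg and 60.0 to 80.5 in unstimulated cells. Most of the IL-4 sum was Ocstamp (165 CPM) and Dcstamp (96.8 CPM). Ctsk averaged 27.0 CPM in IL-4 and 8.11 in LPS with IFNg, whereas Acp5 averaged 33.1 in IL-4 and 47.2 in LPS with IFNg. Calcr was at 0 in all 9 libraries and Oscar at 0 outside IL-4. The part of osteoclast-like cells was not tested. Of 20 prostaglandin and leukotriene genes 13 were higher in IL-4 and 6 in LPS with IFNg. Ptgs1, the constitutive enzyme, was at 41.8, 41.3 and 36.1 CPM in IL-4 and 0.465, 0.379 and 0.189 in LPS with IFNg. Ptgs2, the inducible one, was at 2.36, 0.89 and 2.44 CPM in IL-4 and 2257, 2439.8 and 2239.7 in LPS with IFNg (-10.30 ± 0.19).

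**Figure D3:**
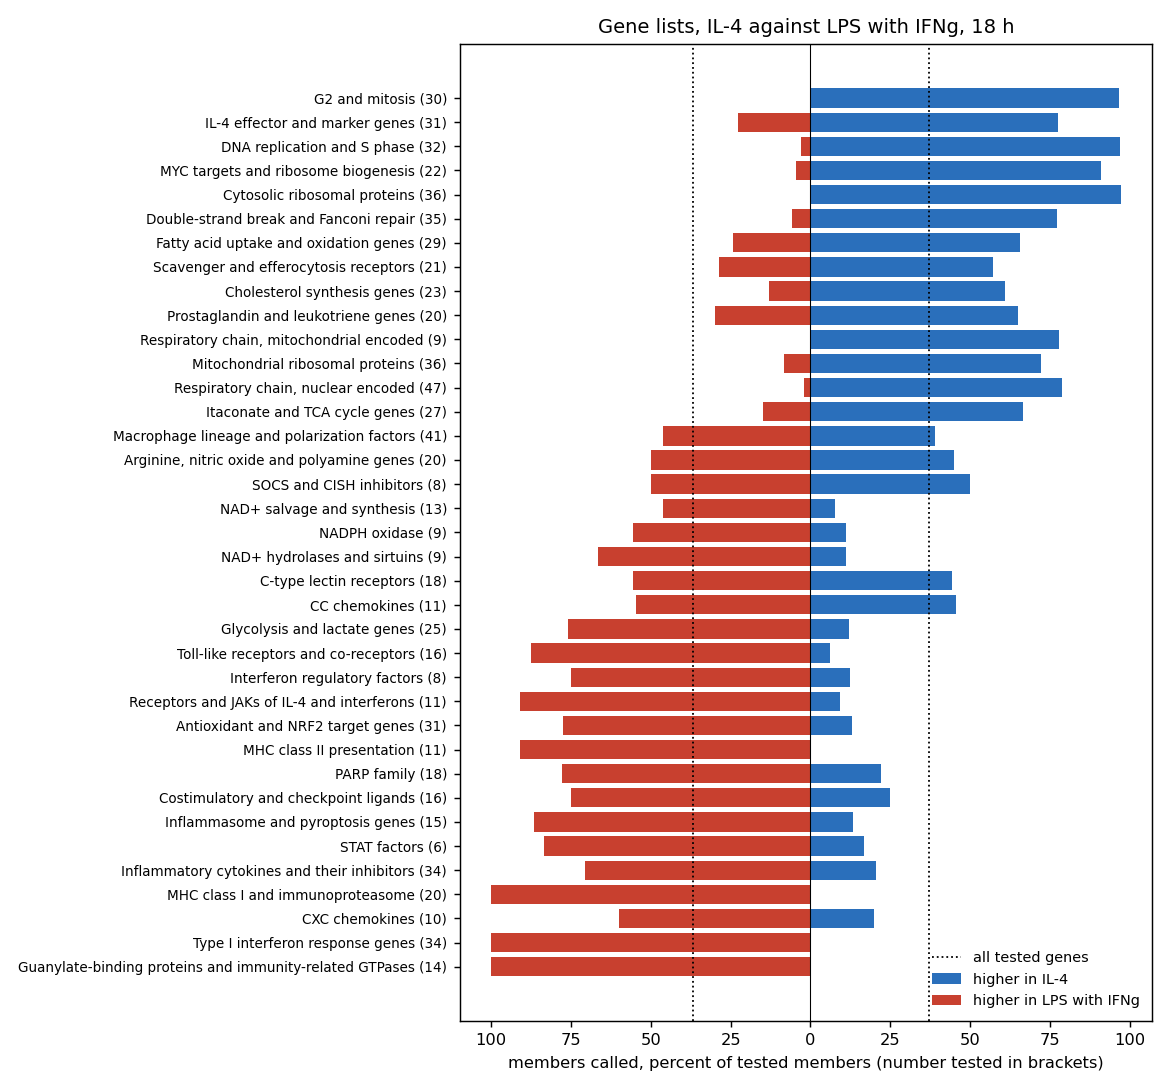
Percent of the tested members of each gene list that were called higher in IL-4 (right) and higher in LPS with IFNg (left), lists ordered by their median difference. Dotted lines mark the share of all tested genes, 37.2% and 36.7%. Interferon response, guanylate-binding protein and MHC class I lists reach 100% on the left, while the cell cycle and cytosolic ribosomal protein lists pass 90% on the right.

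Genes that use arginine and NAD+ were found on both sides. Of the 20 arginine, nitric oxide and polyamine genes 9 were higher in IL-4 and 10 in LPS with IFNg, and the median was -0.12 and turned to 0.35 with library-size scaling. Ass1, which regenerates arginine from citrulline, was at 637, 603 and 512 CPM in LPS with IFNg and 11.1, 11.7 and 14.6 in IL-4 (-5.56 ± 0.12). Srm, the spermidine synthase, was at 6.2, 5.3 and 4.92 CPM in LPS with IFNg and 57.7, 75.1 and 63.6 in IL-4 (3.57 ± 0.16), and it fell from unstimulated cells in LPS with IFNg (-2.94 ± 0.16). Nampt, which limits the rate of NAD+ salvage, was at 1571, 1643 and 1548 CPM in LPS with IFNg, 119.5, 121 and 119 in IL-4 and 101, 98.7 and 99.4 in unstimulated cells (-3.73 ± 0.07). Cd38, which consumes NAD+, was at 69, 71 and 74.1 CPM in LPS with IFNg, 0.555, 0 and 0 in IL-4 and 0.507, 0.596 and 0.157 in unstimulated cells (-8.50 ± 0.29). Of 13 NAD+ salvage and synthesis genes 6 were higher in LPS with IFNg and 1 in IL-4, which turned to 3 and 5 with library-size scaling (median 0.20). In the PARP family 14 of 18 were higher in LPS with IFNg, led by Parp14 (-5.08 ± 0.14), and 4 in IL-4, among them the DNA break sensor Parp1, at 154, 153 and 153 CPM in IL-4, 39.8, 39.6 and 32 in LPS with IFNg and 196, 201 and 184 in unstimulated cells (2.04 ± 0.09).

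Of 31 antioxidant and NRF2 target genes 24 were higher in LPS with IFNg and 4 in IL-4 (median -1.71). Hmox1, heme oxygenase 1, was at 6591, 7001 and 7072 against 613, 668 and 701 CPM (-3.38 ± 0.08), and the cystine transporter gene Slc7a11 (-4.50 ± 0.11) and the mitochondrial superoxide dismutase gene Sod2 (-3.80 ± 0.10) were higher in LPS with IFNg. Nfe2l2, the gene of NRF2 itself, was not called (0.08 ± 0.07, edgeR adjusted p = 0.24). Of 9 NADPH oxidase genes 5 were higher in LPS with IFNg, with the catalytic subunit gene Cybb at -3.14 ± 0.09. In IL-4 Cybb fell below unstimulated cells (-1.04 ± 0.08) and in LPS with IFNg it rose (2.10 ± 0.08).

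Energy metabolism divided by pathway. Of 25 glycolysis and lactate genes 19 were higher in LPS with IFNg and 3 in IL-4 (median -1.18). Pfkfb3, which makes the activator of phosphofructokinase, was at 1138, 1156 and 1021 CPM in LPS with IFNg and 39.7, 35.9 and 43.3 in IL-4 (-4.81 ± 0.11), the lactate exporter gene Slc16a3 was -3.42 ± 0.09 and the glucose transporter gene Slc2a1 -1.67 ± 0.09. Of 47 nuclear genes of the respiratory chain 37 were higher in IL-4 and 1, Cycs (-0.56 ± 0.11; not called with library-size scaling), in LPS with IFNg, by a median of 0.41. Against unstimulated cells 43 of the 47 rose in IL-4, whereas in LPS with IFNg 11 rose and 16 fell. With library-size scaling 34 rose in IL-4, and in LPS with IFNg 1 rose and 38 fell. The complex I subunit gene Ndufs8 differed most (1.69 ± 0.14). Of the 9 tested genes encoded by the mitochondrial genome 7 were higher in IL-4 and 0 in LPS with IFNg. With library-size scaling 46 of the 47 nuclear genes were higher in IL-4, and 16 glycolysis genes were higher in LPS with IFNg and 6 in IL-4.

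Most genes of the tricarboxylic acid (TCA) cycle were higher in IL-4. Of the 27 itaconate and TCA cycle genes 18 were higher in IL-4 and 4 in LPS with IFNg. The mitochondrial isocitrate dehydrogenase gene Idh2 was at 9.92, 8.14 and 9.27 CPM in LPS with IFNg, 106, 122 and 118 in IL-4 and 103, 93.5 and 98.6 in unstimulated cells (3.65 ± 0.11), Idh1 was 1.98 ± 0.09 and the fumarase gene Fh1 1.98 ± 0.10. The citrate synthase gene Cs differed little, although it was called (0.17 ± 0.06). Of 29 fatty acid uptake and oxidation genes 19 were higher in IL-4, with the lipoprotein lipase gene Lpl at 3.09 ± 0.08 and the fatty acid-binding protein gene Fabp4 at 2.52 ± 0.16, and 7 in LPS with IFNg, with Acsl1 at -5.31 ± 0.10. Pparg, the lipid-sensing nuclear receptor, was at 94.7, 84.3 and 81.6 CPM in IL-4, 46.2, 46.2 and 54.3 in unstimulated cells and 5.12, 4.17 and 5.67 in LPS with IFNg (4.11 ± 0.13). Of 23 cholesterol synthesis genes 14 were higher in IL-4 and 3 in LPS with IFNg.

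Most growth and division genes were higher in IL-4 than in LPS with IFNg, where they had fallen from unstimulated cells. Of 36 cytosolic ribosomal protein genes 35 were higher in IL-4 (median 1.77) and the other, Rps24, was not called (0.19 ± 0.11, edgeR adjusted p = 0.11; 0.0136 without a filter on low counts and 0.0218 without IL-4 replicate 1). From unstimulated cells 35 of the 36 fell in LPS with IFNg and 33 rose in IL-4. Rpl10a showed the widest gap, at 358, 423 and 372 CPM in IL-4, 318, 320.1 and 321 in unstimulated cells and 28.1, 27.5 and 28.6 in LPS with IFNg (3.78 ± 0.09). Ribosomal protein genes have many processed copies, so their reads may be shared, and Rpl10a overlaps a transcript on the other strand. Myc was at 76.8, 74.9 and 67.6 CPM in IL-4, 50.1, 52.9 and 45.4 in unstimulated cells and 0.31, 1.14 and 0 in LPS with IFNg (7.22 ± 0.22). Of the 22 MYC target and ribosome biogenesis genes 20 were higher in IL-4, and 26 of 36 mitochondrial ribosomal protein genes were higher in IL-4 and 3 in LPS with IFNg (0 in LPS with IFNg with library-size scaling).

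Of 32 replication genes 31 were higher in IL-4 (median 2.83), and Ccne1 was higher in LPS with IFNg (-0.88 ± 0.14). Of 30 genes of G2 and mitosis 29 were higher in IL-4 (median 4.90), and Tpx2 was not called (-0.20 ± 0.12, edgeR adjusted p = 0.14). The proliferation marker Mki67 was at 390.3, 363 and 308 CPM in unstimulated cells, 163, 142 and 164 in IL-4 and 3.1, 1.89 and 3.03 in LPS with IFNg (5.85 ± 0.24). The unstimulated libraries were thus the highest of the 3 groups, and against them 29 of 30 mitotic genes fell in IL-4 and 30 in LPS with IFNg. The median change was -0.89 in IL-4 and -5.63 in LPS with IFNg. Rrm2, a subunit of ribonucleotide reductase, was at 148, 90.9 and 0.344 CPM in unstimulated, IL-4 and LPS with IFNg cells (7.93 ± 0.29). Of 35 double-strand break and Fanconi repair genes 27 were higher in IL-4, with Fancd2 at 5.52 ± 0.39, and 2, Fanca (-2.33 ± 0.12) and Fancl (-0.79 ± 0.13), in LPS with IFNg.

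**Figure D4:**
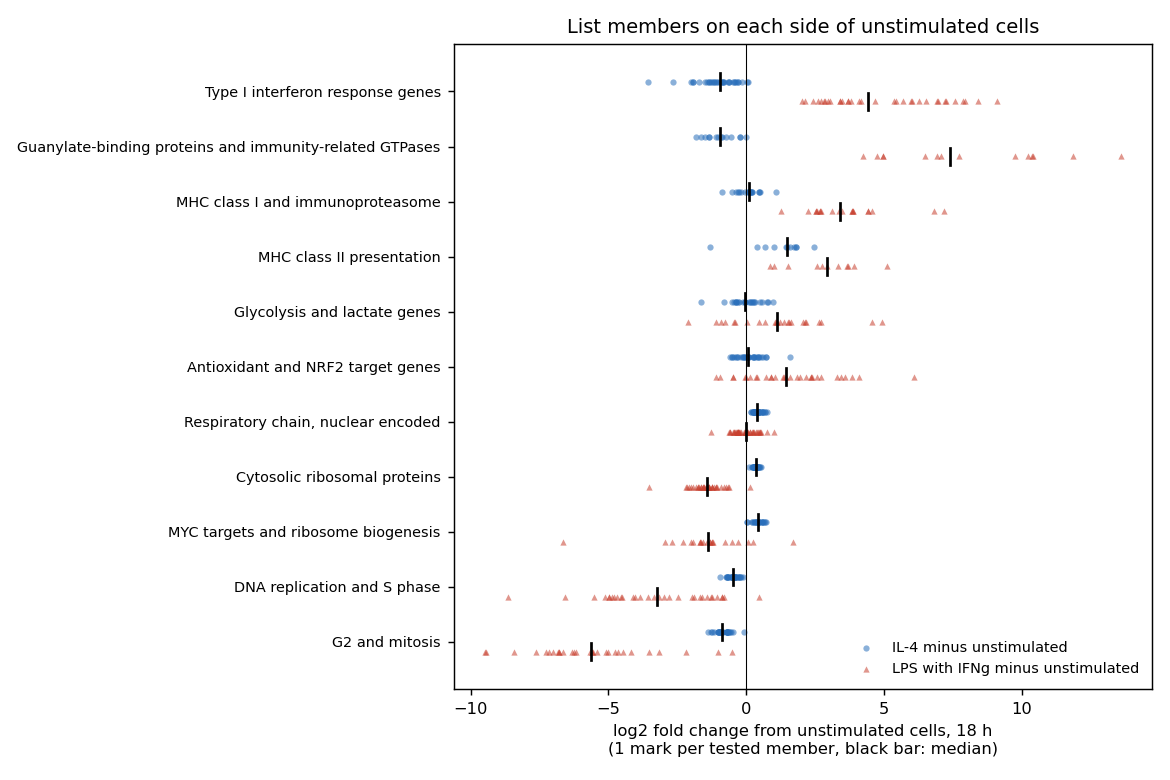
Log2 fold change from unstimulated cells for every tested member of 11 gene lists, in IL-4 (circles) and in LPS with IFNg (triangles), with a black bar at the median. Both sets share the 3 unstimulated libraries. The medians of type I interferon genes lie left of 0 in IL-4 (-0.95) and right of it in LPS with IFNg, those of class II genes right of 0 in both, and those of mitotic genes left of 0 in both (-0.89 and -5.63).

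Of 41 lineage and polarization factors 16 were higher in IL-4 and 19 in LPS with IFNg, near the shares of all genes tested (37.2% and 36.7%), and with library-size scaling 20 and 17. Egr2, Myc, Pparg, Bhlhe40 (2.53 ± 0.11) and Batf3 (2.15 ± 0.19) were higher in IL-4, and Mycl (173-fold in counts, 95% counting interval 58.9 to 844), Mxd1 (-5.29 ± 0.13), Batf2 (-4.63 ± 0.13), Hif1a (-3.35 ± 0.11) and Cebpb (-2.31 ± 0.10) in LPS with IFNg. Ppargc1b, a coactivator linked to oxidative metabolism in IL-4 macrophages, was at 9.02, 6.79 and 11 CPM in IL-4, 10.7, 9.85 and 9.27 in LPS with IFNg and 1.01, 1.64 and 2.19 in unstimulated cells (-0.18 ± 0.20, edgeR adjusted p = 0.42, not called). It had risen in both polarized groups, and their libraries overlapped.

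The same comparison at 1 h, in separate libraries, asked which differences were already present. There 3879 genes (30.4%) were called, 1893 higher in IL-4 (14.8%) and 1986 higher in LPS with IFNg (15.6%), and for 8297 genes (65%) the difference at 18 h differed from that at 1 h by an interaction test in the same edgeR fit. Of the 4682 genes higher in LPS with IFNg at 18 h, 1332 were higher there at 1 h, 596 were lower and 2754 were not called. Of the 4754 higher in IL-4 at 18 h, 703 were higher at 1 h, 371 were lower and 3680 were not called. Cxcl10 differed by -12.67 ± 0.27 at 1 h and -12.66 ± 0.29 at 18 h, and Tnf was further apart at 1 h, at 5794, 5649 and 5848 CPM in LPS with IFNg and 11, 8.78 and 13.9 in IL-4 (edgeR interaction adjusted p = 5.1e-17). Nos2 was at 5.73, 4.58 and 5.2 CPM with LPS and IFNg and 0 in the 3 IL-4 libraries at 1 h, far below its level with LPS and IFNg at 18 h. Among IL-4 genes Arg1 was already higher in IL-4 at 1 h, at 18.5, 20.0 and 21.5 against 0.37, 0.398 and 0 CPM (6.20 ± 0.38), and Mgl2 at 8.75, 8.95 and 7.62 against 0.555, 0.398 and 1.08 CPM (3.58 ± 0.35). Chil3 (0.14 ± 0.14, edgeR adjusted p = 0.51) and Mrc1 (0.15 ± 0.16, edgeR adjusted p = 0.53) were not called at 1 h, and Mki67 was lower in IL-4 then (-0.71 ± 0.14).

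**Figure D5:**
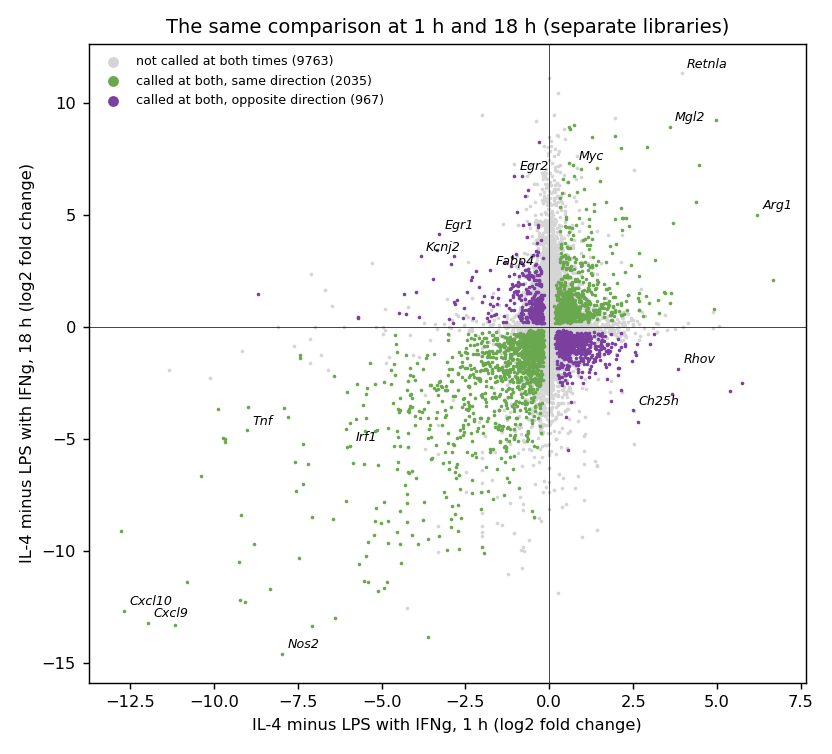
Each point is a gene, with the log2 difference of IL-4 minus LPS with IFNg at 1 h on the x axis and at 18 h on the y axis, from separate libraries. Of the genes called at both times 2035 had the same direction and 967 the opposite one, and Egr1, Egr2 and Kcnj2 lie upper left, higher in LPS with IFNg at 1 h and in IL-4 at 18 h.

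LPS with IFNg was also compared with LPS alone at 18 h. Against LPS alone 6051 genes (47.4%) were called, 3060 higher (24%) and 2991 lower (23.4%) in LPS with IFNg. This contrast shares the LPS with IFNg libraries with the comparison above. Which LPS dose each of these groups received is not stated. A difference in LPS dose therefore cannot be told apart from the effect of added IFNg. Ciita was at 3.73, 3.75 and 4.72 CPM with LPS alone and 184, 189.6 and 183 with IFNg added (5.50 ± 0.15), and Cxcl9 at 134, 154 and 144 against 3891, 3819 and 3968 CPM (4.76 ± 0.14). Nos2 (3.97 ± 0.10), Irf1 (3.41 ± 0.08), Il12b (4.58 ± 0.23) and Nampt (2.14 ± 0.07) were also higher with IFNg. Ccl5 (0.10 ± 0.10, edgeR adjusted p = 0.44) and Socs3 (0.09 ± 0.11, edgeR adjusted p = 0.57) were not called there, although both separated LPS with IFNg from IL-4 by over 8 on the log2 scale. Il1b, by contrast, was lower with IFNg added (-1.96 ± 0.17), as were Arg1, Mrc1 (-1.63 ± 0.22) and Chil3 (-1.90 ± 0.21).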

How the data were processed

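Counts per gene were deposited by the authors as 1 table per library, with 43629 Ensembl gene identifiers and no header. STAR, featureCounts, DESeq2, deepTools and GRCm38 are named in the submitters' processing notes, with no versions, and the strand setting was not given in the sources used here. The library kit was TruSeq stranded mRNA, per the labels' protocols. Groups were taken from sample titles.

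Gene symbols and coordinates came from the reference annotation of the same build, GRCm38. All 24 libraries in 8 groups entered 1 edgeR fit (version 4.0.16, R 4.3.3, limma 3.58.1), with TMM scaling and filterByExpr at a minimum count of 10, which kept 12765 genes. The quasi-likelihood test was used with Benjamini-Hochberg adjustment over all of them, with calls at an adjusted p below 0.05. Untested genes held 0.123% to 0.24% of the counts of the 9 libraries at 18 h. CPM are TMM-scaled. The fit was tested on simulated data in which only a small share of genes was changed. That does not test the scaling where most genes differ. The members and gene lists were chosen with earlier results of these data known.

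Genes were named by rule. It took the 12 called genes with the largest difference each way. These averaged at least 5 CPM over the 6 compared libraries, with groups apart and no predicted symbols. Under the same filters it took 8 for each orientation of opposite change and 6 for each direction of same change. Up to 5 called members of each list in each direction were added, beside a set of polarization genes and list members that were not called. A few genes are not reported here. A few list members outside the rule were named after their values were seen. Promoters of RefSeq (GRCm38.p6) were matched by symbol. Alternatives covered scaling, filter, DESeq2 (1.42.0), limma-voom, the samples fitted, the threshold, a replicate block and leaving out each library. Beyond the shared fit, other groups of the series were used only for the comparison at 1 h and for LPS alone.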

Additional observations from a re-analysis of the deposited data

Results flagged for a closer look

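The same contrast, IL-4 minus LPS with IFNg, was opposite at 1 h and 18 h for 371 genes higher in IL-4 at 18 h and 596 genes higher in LPS with IFNg at 18 h. The 12 named here were the 6 of each kind furthest from 0 at both times among genes averaging 5 CPM or more, chosen after their values were seen, and the difference between the times was called for each by an interaction test in edgeR. The immediate-early gene Egr1 was at 184.6 CPM in LPS with IFNg and 19.1 in IL-4 at 1 h, and at 0.689 and 12.8 CPM at 18 h, a change in the difference of 7.42 on the log2 scale. The potassium channel gene Kcnj2 moved by 6.98, from 245 against 17.5 CPM to 8.69 against 76.9 CPM in LPS with IFNg and IL-4. The endothelin gene Edn1 moved by 6.76, Fam43a by 6.01, Prag1 by 5.73 and the nuclear receptor gene Nr4a1 by 4.69. In the other direction Ch25h, which makes 25-hydroxycholesterol, was at 35.2 CPM in IL-4 and 6.28 in LPS with IFNg at 1 h and at 4.39 and 58.8 CPM at 18 h, a change of −6.22. The changes were −6.65 for Napb, −5.72 for the GTPase gene Rhov, −4.96 for Rasgrp1, −4.04 for the adaptor gene Scimp and −3.88 for Rassf1. Some of these sizes rest on a group at a low level and are uncertain. In LPS with IFNg, Napb was at 0.194 CPM and Rasgrp1 at 0.94 CPM at 1 h, and Edn1 at 0.511 CPM at 18 h.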

How the results depend on the processing

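Scaling mattered most. With library-size scaling 7253 genes were higher in IL-4 and 2776 in LPS with IFNg at 18 h, 3948 were at least 2-fold higher in IL-4, and at 1 h the counts were 5505 and 1087. Under it the list medians of SOCS and CISH inhibitors (0.22), arginine genes (0.35) and NAD+ salvage (0.20) turned, as did genes not called with TMM scaling: Ifi30 (0.46), Lyz2 (0.42), Ppargc1b (0.29), Tlr4 (0.41) and Tpx2 (0.27). Mmp13 (0.58), Nfe2l2 (0.56) and Rps24 (0.66) were then called. Without a filter on low counts Ifi30 stood at 0.016. Leaving out 1 library in turn, values ranged from -0.10 to 0.046 for Ifi30 and from -0.23 to 0.083 for Tlr4. At an adjusted p below 0.01, 1047 genes moved in the same direction.

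Deviations of same-numbered libraries of IL-4 and LPS with IFNg correlated at 0.034, 0.185 and 0.029. Those of different-numbered libraries ranged from -0.136 to 0.101. Whether libraries were paired by number could not be told from these values. The replicate block gave 4822 and 4752 calls at 18 h and moved no count over all genes by over 1.5 times; it also called Tpx2 (-0.20). Within 100 bases of the start, promoters with a match numbered 1 (STAT6-type spacing, IL-4 list), 6 (response element, type I interferon list) and 0 (kappaB, MHC class I list). In the list of guanylate-binding proteins and immunity-related GTPases, 8 of 10 held the response element there and 5 of 10 the gamma-activated site. Over all promoters these shorter windows held them in 0.983% and 2.55%. DESeq2, limma-voom, median-of-ratios scaling and the fit of the 18 h groups alone kept every count over all genes within 1.5 times. Depth limits the genes at 0 counts, for which folds are bounds.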
